A study of Mus musculus with 14 samples.

Results

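Tbx21, Eomes, Runx3, Gata3, Rora, Pparg and Bcl6 encode transcription factors that direct helper and cytotoxic T cell programs and are reused by subsets of Tregs. The accessible chromatin around these 7 genes was described here in central Tregs (cTregs) and effector Tregs (eTregs) with or without Atg14, a subunit of the Vps34 lipid kinase complex that acts in autophagy. A region of the assay was assigned to a gene when its midpoint lay within the gene body or when the gene had the nearest transcription start of all protein-coding genes. This rule gave 160 of 67254 regions, and 138 of them had enough counts to be tested: 8 of 8 for Tbx21, 13 of 15 for Eomes, 18 of 20 for Runx3, 52 of 59 for Gata3, 29 of 33 for Rora, 1 of 3 for Pparg and 17 of 22 for Bcl6. Regions are numbered within each gene by their position along the chromosome.

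The assay was bulk ATAC-seq, in which a transposase cuts into open DNA, so that more reads over a region mean that it was more accessible. Tregs were sorted from the spleens of mixed bone marrow (BM) chimeras, made by giving sublethally irradiated Rag1–/– hosts, which lack mature T and B cells of their own, a mixture of CD45.1+ WT BM and CD45.2+ BM that was either control (Foxp3Cre Atg14+/fl) or Atg14-deficient (Foxp3Cre Atg14fl/fl). Both genotypes carried Cre under Foxp3, which is expressed in Tregs, and the controls carried a single floxed allele, so every group had the Cre. From the CD45.2+ cells, CD4+ Foxp3-YFP+ Tregs were sorted by surface markers into cTregs with little or no CD44 and eTregs with much CD44, giving 14 libraries: 3 of cTregs and 3 of eTregs from control BM, and 4 of each from Atg14-deficient BM. The values are counts of nucleosome-free reads per region, given as counts per 1000000 reads in all regions (CPM).

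T-bet, the product of Tbx21, drives the Th1 program and lets Tregs follow Th1 cells into inflamed sites. Eomesodermin and Runx3 are best known from cytotoxic lymphocytes, where Runx3 also silences Cd4, and Runx3 cooperates with T-bet. GATA-3 drives the Th2 program and is retained by Tregs of barrier tissues, RORα and PPARγ are nuclear receptors tied to tissue Tregs, and Bcl6 is the repressor that defines follicular helper T cells and follicular Tregs. Distal regions near such genes often act as enhancers, but the nearest gene is not always the gene that a region controls, and no measurement here links a region to a gene.

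For each of the 6 genes with a region that differed between control eTregs and control cTregs, the central 200 bases of the region with the smallest p are shown, since these stretches carry the state differences described below. They are the plus strand of GRCm38 from RefSeq, and capitals mark every match on either strand to 7 words that stand for factors of activated or resting T cells: TGANTCA for AP-1, TGTGGT for Runx factors, GGTGTGA for T-box factors, AGATAA for the family of Gata3, AGGTCA for nuclear receptors, CTTTGAT for Tcf and Lef factors and GGGTGG for Klf factors.
Tbx21 region 3, higher in eTregs, chr11:97104210-97104409: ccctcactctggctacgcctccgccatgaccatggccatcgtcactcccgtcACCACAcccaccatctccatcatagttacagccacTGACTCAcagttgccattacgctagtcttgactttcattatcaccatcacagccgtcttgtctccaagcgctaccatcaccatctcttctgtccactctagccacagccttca
Runx3 region 16, higher in eTregs, chr4:135169190-135169389: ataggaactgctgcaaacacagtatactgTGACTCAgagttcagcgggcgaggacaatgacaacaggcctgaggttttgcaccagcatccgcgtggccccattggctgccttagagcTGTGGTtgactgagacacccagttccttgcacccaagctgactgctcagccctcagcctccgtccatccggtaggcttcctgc
Eomes region 6, lower in eTregs, chr9:118390819-118391018: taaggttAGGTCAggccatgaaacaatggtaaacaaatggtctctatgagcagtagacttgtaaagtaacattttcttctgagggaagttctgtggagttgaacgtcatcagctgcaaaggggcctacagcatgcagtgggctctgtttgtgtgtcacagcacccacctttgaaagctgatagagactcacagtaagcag
Gata3 region 35, lower in eTregs, chr2:9677200-9677399: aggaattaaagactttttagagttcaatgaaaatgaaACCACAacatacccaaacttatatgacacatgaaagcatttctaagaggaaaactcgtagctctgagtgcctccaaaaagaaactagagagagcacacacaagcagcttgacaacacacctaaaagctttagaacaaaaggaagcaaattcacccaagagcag
Rora region 13, lower in eTregs, chr9:69073361-69073560: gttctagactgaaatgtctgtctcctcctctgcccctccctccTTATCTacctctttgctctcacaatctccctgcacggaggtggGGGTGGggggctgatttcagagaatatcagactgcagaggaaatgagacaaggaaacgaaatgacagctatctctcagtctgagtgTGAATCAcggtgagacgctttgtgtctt
Bcl6 region 9, lower in eTregs, chr16:23998001-23998200: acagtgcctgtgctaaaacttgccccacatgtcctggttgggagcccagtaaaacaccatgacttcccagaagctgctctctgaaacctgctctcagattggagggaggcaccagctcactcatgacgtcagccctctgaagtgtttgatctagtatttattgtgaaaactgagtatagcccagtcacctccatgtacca

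The stretches of Tbx21 region 3 and Runx3 region 16, which were more open in eTregs, each held an AP-1 word and a Runx word. Among the 4 stretches that were less open in eTregs, the one in Rora region 13 held an AP-1, a Gata3-family and a Klf word, Eomes region 6 held a nuclear receptor word, Gata3 region 35 held a Runx word, and Bcl6 region 9 held none of the 7 words. Gata3 region 35 lies wholly within sequence that the reference soft-masks as repetitive, so its reads could have been placed with less certainty.

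Total counts per library ranged from 2242983 to 5548189, so that 1 CPM stood for 2.24 to 5.55 reads. No region of the table lay within 1000 bases of a transcription start of Foxp3 or Cd4. Of the Treg and T cell genes, Il2ra, Ikzf2, Ctla4 and Cd3e were therefore read at their starts. Their summed signal was 125 to 132 CPM in control cTregs, 137 to 167 CPM in Atg14-deficient cTregs, 93.7 to 97.4 CPM in control eTregs and 118 to 126 CPM in Atg14-deficient eTregs, so it moved with both state and genotype. Of the B cell genes Ms4a1, Cd79a and Pax5 none had a region at a start, and 1 each of the 3 NK cell and 4 myeloid genes did, with at most 5.99 CPM for Klrb1c and 7.01 CPM for Cd14. Away from the starts, the 6 regions nearest to Pax5 summed to 15.6 to 48.1 CPM and the 11 nearest to Klrb1c to 219 to 320 CPM over all libraries. The 1 region nearest to Foxp3 had 7.53 to 26.7 CPM, and the 1 nearest to Cd4 had 16.1 to 47.1 CPM. The start region of Cd8b1, which encodes a CD8 chain, had 15.6 to 16.9 CPM in control cTregs and 10.3 to 21.4 CPM in Atg14-deficient cTregs against 2.62 to 6.83 CPM in control eTregs and 1.54 to 6.35 CPM in Atg14-deficient eTregs. Cd8a had no region at its start. Of the cTreg genes, Ccr7 had a mean of 30.2 CPM at its start in control and 37.3 CPM in Atg14-deficient cTregs against 11.1 CPM in control and 19.5 CPM in Atg14-deficient eTregs. Tcf7 had means of 10.1 CPM and 8.16 CPM in these cTregs against 4.34 CPM and 5.36 CPM in eTregs, and Lef1 72.1 CPM and 72.8 CPM against 62.5 CPM and 78.8 CPM, so that Lef1 was not lower in Atg14-deficient eTregs. The eTreg genes went different ways at their starts. Icos had means of 38.9 CPM in control and 45.4 CPM in Atg14-deficient cTregs against 22.8 CPM and 26.2 CPM in eTregs, whereas Klrg1 had 0.801 CPM and 2.46 CPM against 2.79 CPM and 3.76 CPM, Cd44 19.7 CPM and 20.4 CPM against 23.6 CPM and 21.7 CPM, and Prdm1 67.8 CPM and 66.0 CPM against 73.8 CPM and 70.9 CPM. Fewer cells of a type and less open chromatin per cell cannot be told apart in bulk libraries, and the part of these marker levels in the differences below was not tested.

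**Figure D1:**
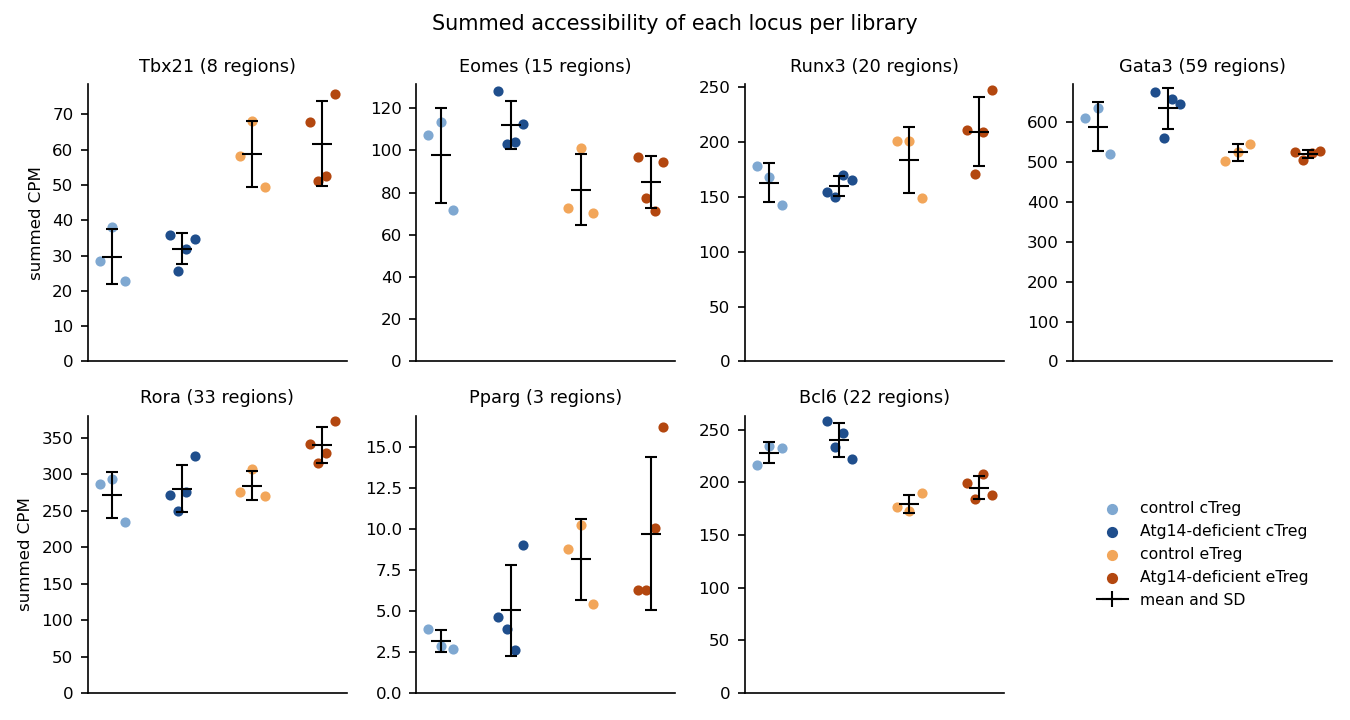
Summed CPM of all regions assigned to each gene (vertical axis, linear, from 0), with 1 point per library and the mean ± SD of each of the 4 groups. The Tbx21 points of eTregs all lie above those of cTregs and the Bcl6 points of eTregs all lie below, whereas those of Eomes and Runx3 overlap between the states in controls and not in the Atg14-deficient groups.

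Summed over its 8 regions, Tbx21 had 28.4, 38.1 and 22.7 CPM in control cTregs and 58.2, 68.2 and 49.6 CPM in control eTregs, and all eTreg libraries lay above all cTreg libraries, also in the Atg14-deficient groups (35.7, 25.7, 31.8 and 34.7 CPM against 67.7, 51.0, 52.4 and 75.8 CPM). The 22 Bcl6 regions went the other way, with 217, 235 and 233 CPM in control cTregs and 177, 173 and 190 CPM in control eTregs, and the Atg14-deficient groups (259, 234, 247 and 222 CPM against 200, 184, 208 and 188 CPM) did not overlap either. Gata3 had by far the most signal of the 7 genes, at 588 ± 60.3 CPM in control cTregs (SD, n = 3) and 523 ± 21.3 CPM in control eTregs (SD, n = 3), and Pparg the least, at 3.15 ± 0.664 CPM and 8.14 ± 2.48 CPM (SD, n = 3 each). The Gata3 sum covers 59 regions spread over 1.27 Mb, 50 of them downstream of the gene, so these sums follow the number of regions as well as how open each was. Rora stood at 284 ± 19.9 CPM in control eTregs (SD, n = 3) and 340 ± 24.5 CPM in Atg14-deficient eTregs (SD, n = 4), where all 4 Atg14-deficient eTreg libraries exceeded all 3 control eTreg libraries. No test was made on these sums.

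The first comparison asked how the loci differ between eTregs and cTregs. In control Tregs, 4 of the 138 regions were more open in eTregs (2 of Tbx21, 1 of Runx3 and 1 of Gata3) and 9 were less open (2 of Eomes, 3 of Gata3, 1 of Rora and 3 of Bcl6), by edgeR's quasi-likelihood test with a Benjamini-Hochberg adjusted p under 0.05 and a change of more than 0.5 on the log2 scale. Over all 61366 regions tested, 2.01% were higher and 3.29% lower by this rule. In Atg14-deficient Tregs, 9 member regions were higher in eTregs (2 of Tbx21, 3 of Runx3 and 4 of Rora) and 14 were lower (3 of Eomes, 8 of Gata3, 1 of Rora and 2 of Bcl6), against 4.41% and 5.4% of all regions. With the mouse as a replicate block, the second pair of counts became 16 and 17, while the shares over all regions rose as well, to 7.63% and 7.84%. Same-numbered Atg14-deficient libraries were taken as 1 mouse there, although no label says so. The 10 regions that the block added were Tbx21 regions 4 and 5, Gata3 regions 8, 14 and 59 and Rora regions 23 and 26, which were higher in eTregs, and Eomes region 8, Gata3 region 51 and Bcl6 region 7, which were lower. With the control numbers also taken as mice, the counts in controls became 8 and 12, beside 4.67% and 5.70% of all regions. Over all 138 regions, the control libraries of the states did not overlap at 17 regions higher and 25 lower in eTregs, beside 12.2% and 13.9% of all regions, and the Atg14-deficient libraries at 9 and 16, beside 7.13% and 8.38%.

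Of the 27 regions called in either genotype, 9 were called in both, in the same direction, and 26 had the same sign in both. The 18 called in 1 genotype alone are not shown to differ between genotypes, and 3 of them had an unadjusted interaction p below 0.05. Leaving out 1 library left 0 to 4 higher and 2 to 7 lower regions in controls, and the counts moved by over 1.5 times without control cTreg 1 (0 and 2), control cTreg 3 (0 and 5), control eTreg 1 (1 and 4), control eTreg 2 (0 and 4) or control eTreg 3 (3 and 4). In Atg14-deficient Tregs they moved by as much without cTreg 1 (6 and 8), cTreg 2 (4 and 9), cTreg 3 (3 and 5), eTreg 1 (4 and 8), eTreg 3 (5 and 10) or eTreg 4 (2 and 8). Of the 13 calls in controls, only that of Gata3 region 35 held in every alternative that tested it, and the others were lost in 1 or more, most often when a library was left out. Of 13 calls in Atg14-deficient Tregs that were followed through the alternatives, those of Eomes regions 6 and 7, Gata3 region 37 and Rora region 13 held in every one that tested them.

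**Figure D2:**
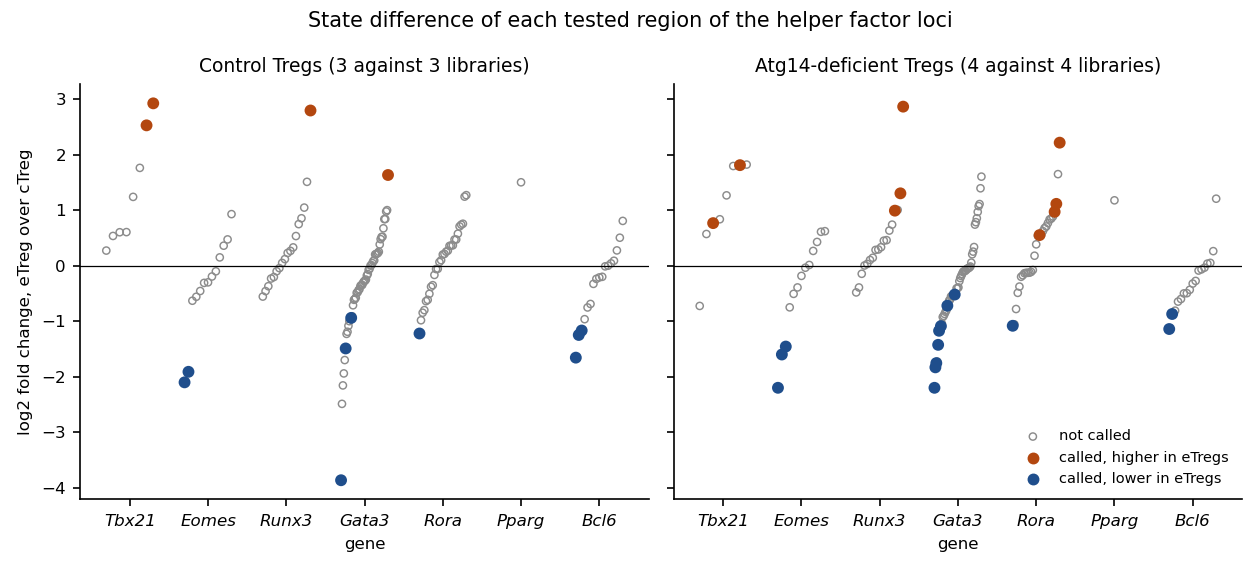
Log2 fold change of eTregs over cTregs (vertical axis) for each tested region, ordered by value within each gene, in controls (left) and Atg14-deficient Tregs (right). Filled points passed the adjusted threshold, with higher regions in orange (4 left, 9 right) and lower regions in blue (9 left, 14 right), and the filled Eomes and Bcl6 points all lie below 0.

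Few of the regions were promoters. Of the 9 regions within 1000 bases of a transcription start of a member, 8 were tested, with log2 fold changes of -0.42 to 1.24 in controls and -0.39 to 0.83 in Atg14-deficient Tregs. None was called in controls and 1, at Rora, was called in Atg14-deficient Tregs, beside 13 and 22 of the 130 other tested regions, and with so few promoters no difference between the 2 kinds of region was tested. The 5′-most Runx3 promoter (region 10, chr4:135120204-135120716) was among the most open regions, at 46.3 ± 5.42 CPM (SD, n = 3) in control cTregs and 50.8 ± 9.17 CPM (SD, n = 3) in control eTregs, with a log2 fold change of 0.12 ± 0.18 (SE). At the Bcl6 promoter (region 6, chr16:23988455-23989152), the values were 37.3 ± 2.19 CPM (SD, n = 3) and 32.3 ± 8.73 CPM (SD, n = 3), with a log2 fold change of -0.20 ± 0.19 (SE). Neither passed the adjusted threshold.

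Other promoters were read in the same way. Eomes region 13 (chr9:118478460-118479383) had a log2 fold change of -0.31 ± 0.28 (SE) in controls, Gata3 region 54 (chr2:9878339-9878786), at an inner start of the gene, had -0.42 ± 0.21 (SE), and the inner Runx3 start (region 13, chr4:135152320-135152619) had -0.10 ± 0.47 (SE). None of these passed the adjusted threshold. Of the 2 Tbx21 regions within 1000 bases of the gene's start, the nearer, region 6 (chr11:97115193-97115469), was low everywhere. It had 1.47, 3.35 and 1.78 CPM in control cTregs and 5.86, 6.56 and 3.79 CPM in control eTregs. Its log2 fold change of 1.24 ± 0.57 (SE) did not pass (adjusted p = 0.22, edgeR). The eTreg libraries were all above the cTreg libraries there, but by a margin of less than 1 CPM.

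Tbx21 gained accessibility in eTregs. Region 3 (chr11:97104147-97104472), an intronic stretch 11.0 kb past the start, had 0.489, 1.68 and 0 CPM in control cTregs and 6.51, 9.18 and 3.97 CPM in control eTregs. It was almost closed in control cTregs, and every control eTreg library was higher than every control cTreg library, with a log2 fold change of 2.92 ± 0.70 (SE) and an adjusted p of 0.0137 (edgeR). The call was kept in 9 of 12 alternatives, in which the log2 fold change ranged from 2.54 to 4.24. In Atg14-deficient Tregs the region had 3.36, 0.779, 0.526 and 3.21 CPM in cTregs and 5.99, 2.93, 7.41 and 10.3 CPM in eTregs, where eTreg 2 lay among the cTreg libraries, and the log2 fold change was 1.81 ± 0.56 (SE) (adjusted p = 0.0367, edgeR). That call was kept in 9 of 14 alternatives. Another intronic stretch, region 4 (chr11:97109037-97109367, 6.1 kb past the start), had 0.978, 2.87 and 0 CPM in control cTregs and 8.46, 11.0 and 6.13 CPM in control eTregs.

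Region 4 was thus low in all control cTregs and higher in all control eTregs, with a log2 fold change of 2.53 ± 0.67 (SE) (adjusted p = 0.0257, edgeR). The call was kept in 8 of 12 alternatives (adjusted p up to 0.134, edgeR). Its log2 fold change was 1.79 ± 0.59 (SE) in Atg14-deficient Tregs and did not pass without a replicate block (adjusted p = 0.052, and 0.00948 with the mouse as a block). The most open Tbx21 region, region 8 (chr11:97126833-97127493, 11.8 kb upstream), was called in Atg14-deficient Tregs alone. Its log2 fold change was 0.27 ± 0.28 (SE) in controls and 0.77 ± 0.25 (SE) in Atg14-deficient Tregs (adjusted p = 0.045, edgeR), where cTregs had 6.72, 16.4, 16.04 and 20.6 CPM and eTregs 23.1, 25.5, 21.2 and 32.9 CPM. The call was kept in 8 of 15 alternatives (0.54 and adjusted p = 0.147 without Atg14-deficient cTreg 1), and the difference between genotypes was 0.49 ± 0.37 (SE) (unadjusted p = 0.197, edgeR). All 8 Tbx21 regions had a positive log2 fold change in controls, with a median of 0.92 against -0.01 over all regions, of which 30195 of 61366 were positive. In Atg14-deficient Tregs 7 of the 8 were positive, beside 31699 of all regions, and the lowest value was -0.73.

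At Runx3, region 16 (chr4:135169115-135169465), an intronic stretch 15.8 kb past the nearest start, had 0.489, 1.91 and 0 CPM in control cTregs and 9.76, 5.77 and 4.33 CPM in control eTregs. The groups did not overlap, and the log2 fold change was 2.80 ± 0.82 (SE) (adjusted p = 0.042, edgeR). It was 4.26 without control cTreg 2, and the call was lost without control cTreg 1, control cTreg 3, control eTreg 1 or control eTreg 2 (adjusted p of 0.0799 to 0.187). The Atg14-deficient libraries showed the same direction, with 0, 0, 1.05 and 1.28 CPM in cTregs and 8.39, 2.51, 1.06 and 7.71 CPM in eTregs, but eTreg 3 fell within the cTreg range, and the log2 fold change was 2.86 ± 0.78 (SE) (adjusted p = 0.0194). Region 20 (chr4:135206145-135206657, downstream of the gene) was called in Atg14-deficient Tregs alone, at 18.5, 13.2, 14.7 and 14.1 CPM in cTregs and 28.8, 22.6, 29.4 and 38.5 CPM in eTregs. All Atg14-deficient eTregs were above all Atg14-deficient cTregs there (log2 fold change 0.99 ± 0.23 (SE), adjusted p = 0.00782, edgeR), while the value in controls was 0.23 ± 0.27 (SE).

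Eomes lost accessibility in a cluster of 3 neighboring regions 85.2 to 90.4 kb upstream. Region 6 (chr9:118390738-118391100, 87.3 kb upstream) had 12.7, 12.9 and 3.57 CPM in control cTregs and 1.95, 3.41 and 2.52 CPM in control eTregs. Control cTreg 3 was much lower than the other two cTreg libraries but still above every eTreg library, and the log2 fold change was -1.91 ± 0.44 (SE) (adjusted p = 0.00909, edgeR). In Atg14-deficient Tregs, with 16.8, 12.5, 9.99 and 13.2 CPM in cTregs and 2.10, 4.18, 2.65 and 2.57 CPM in eTregs, the separation was wider, and the log2 fold change of -2.20 ± 0.39 (SE) had an adjusted p of 0.000704 (edgeR). Region 5 (chr9:118387679-118387935, 90.4 kb upstream) had 5.38, 3.35 and 6.24 CPM in control cTregs and 0.651, 1.57 and 1.08 CPM in control eTregs, without overlap.

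The log2 fold change of region 5 was -2.10 ± 0.60 (SE) in controls (adjusted p = 0.0364, edgeR) and -1.60 ± 0.51 (SE) in Atg14-deficient Tregs (adjusted p = 0.0437). These calls were kept in 7 of 12 alternatives in controls and in 7 of 14 in Atg14-deficient Tregs. Region 7 (chr9:118392870-118393189, 85.2 kb upstream) was called in Atg14-deficient Tregs, from 12.6, 9.73, 15.2 and 12.8 CPM in cTregs to 5.99, 3.35, 4.24 and 4.62 CPM in eTregs, with a log2 fold change of -1.46 ± 0.32 (SE) (adjusted p = 0.00456, edgeR) against -0.56 ± 0.35 (SE) in controls. The region downstream of Eomes with the most signal, region 15 (chr9:118489479-118490020), ranged from 16.3 to 22.5 CPM over all 14 libraries and had a log2 fold change of -0.10 ± 0.23 (SE) in controls. The Cd8b1 start region given above was also lower in eTregs, and whether the 2 are linked was not tested.

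**Figure D3:**
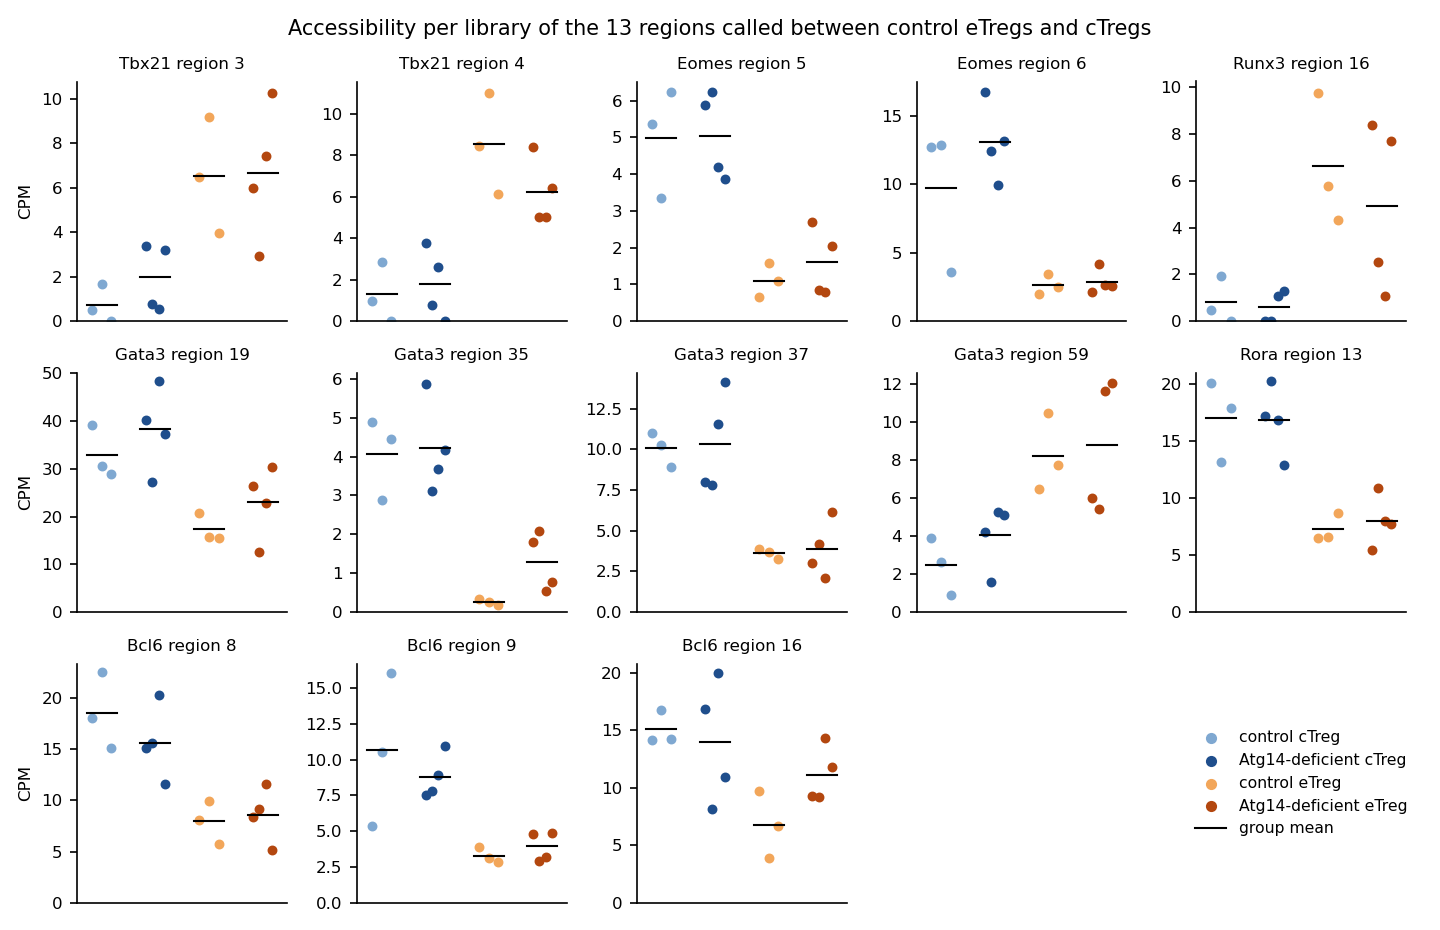
CPM per library (vertical axis, linear, from 0, scaled separately in each panel) of the 13 regions called between control eTregs and cTregs, with 1 point per library and a line at each group mean. In the control groups the eTreg and cTreg points do not overlap in any panel, whereas in the Atg14-deficient groups they overlap at Tbx21 region 3, Runx3 region 16, Gata3 region 19, Bcl6 region 8 and Bcl6 region 16.

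Gata3 lost accessibility in eTregs over parts of the long interval downstream of it and gained it at a region upstream. Region 37 (chr2:9683834-9684183, 194.3 kb downstream of the nearest start) had 11.0, 10.3 and 8.92 CPM in control cTregs and 3.90, 3.67 and 3.24 CPM in control eTregs. The eTreg libraries were less than 1 CPM apart and far below the cTregs, with a log2 fold change of -1.49 ± 0.40 (SE) (adjusted p = 0.0254, edgeR) and -1.43 ± 0.35 (SE) in Atg14-deficient Tregs (adjusted p = 0.0101). Region 19 (chr2:9519915-9520483, 358.1 kb downstream), one of the more open regions of the locus, had 39.1, 30.6 and 29.0 CPM in control cTregs and 20.8, 15.7 and 15.5 CPM in control eTregs. It was lower in every control eTreg, with a log2 fold change of -0.94 ± 0.25 (SE) (adjusted p = 0.0265, edgeR) and -0.72 ± 0.22 (SE) in Atg14-deficient Tregs (adjusted p = 0.0315).

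The repeat-masked region 35 (chr2:9677200-9677399, 201.0 kb downstream) had 4.89, 2.87 and 4.46 CPM in control cTregs and 0.325, 0.262 and 0.180 CPM in control eTregs. The eTreg values rest on 3 reads in all, against 42 in control cTregs, and the ratio of the pooled levels was 16.6, with an exact 95% interval of 5.29 to 83.5 that covers counting error only. That interval treats reads as independent. Of all counts in the series 82.0% were even, as when reads enter in pairs, so the interval may be too narrow. Its adjusted p in controls was 0.00514 (edgeR). In the opposite direction, region 59 (chr2:9946723-9947124, 59.0 kb upstream) had 3.91, 2.63 and 0.892 CPM in control cTregs and 6.51, 10.5 and 7.75 CPM in control eTregs, with every eTreg library higher. The log2 fold change of region 59 was 1.63 ± 0.48 (SE) (adjusted p = 0.0419, edgeR) in controls and 1.11 ± 0.41 (SE) in Atg14-deficient Tregs, where the call depended on the replicate block (adjusted p = 0.0753 without it and 0.0325 with the mouse as a block), and of 12 alternative settings in controls 6 kept the call.

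Of the 8 Gata3 regions called in Atg14-deficient Tregs, all were lower in eTregs. With the mouse as a replicate block 3 were higher (regions 8, 14 and 59) and 9 lower. These were 5.77% and 17.3% of the tested Gata3 regions, beside 7.63% and 7.84% of all regions with the block. Without the block, 7 of the 8 lay downstream of the gene at distances of 29.8 to 677.7 kb. The smallest p was at region 36 (chr2:9681592-9682281, 196.4 kb downstream), with 29.0, 23.4, 31.0 and 26.02 CPM in cTregs and 14.4, 11.7, 12.7 and 9.76 CPM in eTregs. No Atg14-deficient eTreg reached the lowest Atg14-deficient cTreg there, and the log2 fold change was -1.17 ± 0.25 (SE) (adjusted p = 0.00302, edgeR), beside -0.91 ± 0.28 (SE) in controls (adjusted p = 0.0535). Region 53 (chr2:9875808-9876301) lay in an intron, with a log2 fold change of -0.52 ± 0.16 (SE) (adjusted p = 0.0389). Yet the most open region of this interval, region 25 (chr2:9593866-9594448, 284.2 kb downstream), between regions 19 and 35, did not follow its neighbors, with 54.0 ± 8.56 CPM (SD, n = 3) in control cTregs, 56.2 ± 7.03 CPM (SD, n = 3) in control eTregs and a log2 fold change of 0.05 ± 0.22 (SE). The median over the 52 tested Gata3 regions was -0.28 in controls and -0.40 in Atg14-deficient Tregs, beside -0.01 and 0.02 over all regions.

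**Figure D4:**
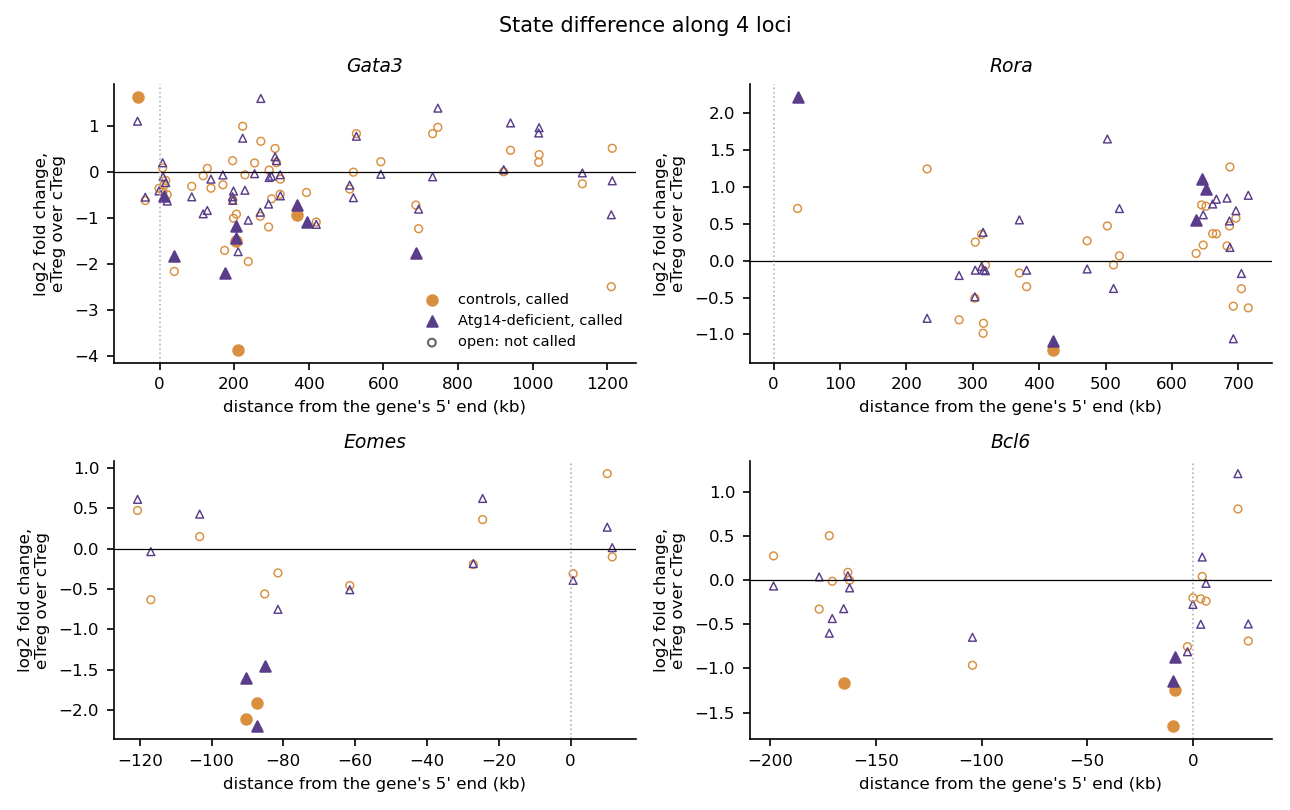
Log2 fold change of eTregs over cTregs (vertical axis) against the distance of each region from the 5′ end of the gene in kb (horizontal axis, positive in the direction of transcription) at Gata3, Rora, Eomes and Bcl6, for controls (circles) and Atg14-deficient Tregs (triangles), with called regions filled. The called Eomes regions lie together 85.2 to 90.4 kb upstream, and 3 of the 4 Rora regions called higher lie near its far end, from 636.4 kb on.

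Rora is a long gene with 8 annotated starts, and 31 of its 33 regions were intronic. Region 13 (chr9:69073265-69073657, 420.1 kb into the gene) was the one lower in eTregs, with 20.04, 13.2 and 17.8 CPM in control cTregs and 6.51, 6.56 and 8.65 CPM in control eTregs. The groups were well apart in both genotypes, as Atg14-deficient cTregs had 17.2, 20.2, 16.8 and 12.8 CPM and eTregs 5.39, 10.9, 7.94 and 7.71 CPM. The log2 fold changes were -1.21 ± 0.31 (SE) in controls (adjusted p = 0.0181, edgeR) and -1.08 ± 0.27 (SE) in Atg14-deficient Tregs (adjusted p = 0.011).

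The 4 Rora regions that were higher in Atg14-deficient eTregs included an inner promoter and 2 intronic regions behind it. With the mouse as a replicate block 6 were higher, or 20.7% of the tested Rora regions, beside 7.63% of all regions. The promoter, region 19 (chr9:69289484-69290085, 636.4 kb into the gene), had 26.5, 26.1, 22.1 and 26.3 CPM in Atg14-deficient cTregs and 38.1, 34.3, 36.8 and 38.0 CPM in eTregs. The change was small but the groups did not overlap, with a log2 fold change of 0.55 ± 0.16 (SE) (adjusted p = 0.0273, edgeR), whereas controls had 0.10 ± 0.18 (SE). The call was lost without Atg14-deficient cTreg 3 (0.486, adjusted p = 0.0992, edgeR), eTreg 1, eTreg 3 or eTreg 4. Region 20 (chr9:69297784-69298398, 8.0 kb past that start) had 7.56, 13.2, 12.6 and 13.8 CPM in Atg14-deficient cTregs and 23.1, 21.8, 26.5 and 31.3 CPM in eTregs. It also did not overlap, with a log2 fold change of 1.11 ± 0.24 (SE) (adjusted p = 0.00446, edgeR) beside 0.75 ± 0.28 (SE) in controls (adjusted p = 0.117). Region 22 (chr9:69304404-69304972) had 0.97 ± 0.29 (SE) (adjusted p = 0.0319), and region 1 (chr9:68689417-68689689), in a UTR exon near the 5′ end and at most 6.16 CPM in any library, had 2.21 ± 0.66 (SE) (adjusted p = 0.0297).

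Pparg had 3 regions, of which only region 3 (chr6:115480327-115480649), in an intron, was tested. It had 2.44, 0.957 and 1.78 CPM in control cTregs and 5.86, 6.30 and 2.88 CPM in control eTregs, and the groups did not overlap. The log2 fold change was 1.501 ± 0.62 (SE) in controls and 1.18 ± 0.52 (SE) in Atg14-deficient Tregs, and neither passed (adjusted p = 0.16 and 0.146, edgeR). Its promoter (region 2, chr6:115361049-115361230) had 0.489, 0.957 and 0 CPM in control cTregs and 2.28, 1.05 and 1.44 CPM in control eTregs, too few reads to pass the filter on low counts.

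Bcl6 was less open in eTregs at a pair of regions just upstream of its promoter. Region 9 (chr16:23997929-23998272, 9.2 kb upstream) had 5.38, 10.5 and 16.1 CPM in control cTregs and 3.90, 3.15 and 2.88 CPM in control eTregs. The cTreg libraries were widely spread but all above the eTregs, and the log2 fold change was -1.66 ± 0.42 (SE) (adjusted p = 0.0175, edgeR). In Atg14-deficient Tregs region 9 had -1.14 ± 0.36 (SE) (adjusted p = 0.0418), a call that was lost without any 1 of the 8 Atg14-deficient libraries (adjusted p of 0.0565 to 0.0999). Region 8 (chr16:23997183-23997598, 8.5 kb upstream), its neighbor, had 18.1, 22.5 and 15.2 CPM in control cTregs and 8.13, 9.97 and 5.77 CPM in control eTregs. Again no control library overlapped, with log2 fold changes of -1.25 ± 0.32 (SE) (adjusted p = 0.0193, edgeR) and -0.87 ± 0.28 (SE) in Atg14-deficient Tregs (adjusted p = 0.0455).

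Much farther out, region 16 of Bcl6 (chr16:24154007-24154322, 165.3 kb upstream) was lower in control eTregs, from 14.2, 16.8 and 14.3 CPM to 9.76, 3.94 and 6.67 CPM. Its log2 fold change was -1.17 ± 0.35 (SE) in controls (adjusted p = 0.0445, edgeR) and -0.32 ± 0.296 (SE) in Atg14-deficient Tregs (adjusted p = 0.521). The Atg14-deficient groups overlapped, at 16.8, 8.18, 19.98 and 10.9 CPM and 9.29, 9.20, 14.3 and 11.8 CPM. The test of the difference between genotypes gave 0.84 ± 0.46 (SE), with an unadjusted p of 0.074 (edgeR). With the mouse as a replicate block, in which the control numbers are also taken as mice, it was 0.90 ± 0.41 (SE) (unadjusted p = 0.0332, edgeR).

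The second comparison asked what loss of Atg14 did at these loci within each state. At an adjusted p below 0.05, edgeR called none of the 138 regions in eTregs, in cTregs or in the difference between them, beside 0.0228%, 0.0163% and 0.0% of all regions, and DESeq2 also called none. By the unadjusted rule of the study (p below 0.05 with the same minimum fold change), 4 regions were higher and 3 lower in Atg14-deficient eTregs, against 4.59% and 1.77% of all regions. In cTregs 5 were higher and 1 lower, against 1.99% and 1.35% of all regions. In eTregs the split depended on the scaling, as TMM gave 4 and 4 and loess offsets 2 and 4, and over all regions the share of calls that were higher fell from 72.2% to 60.1% and 57.6%. In cTregs it moved from 59.6% to 49.4% of all calls with loess offsets, which left 4 and 1 of the member regions. None of the 8 tested promoters was called in either state.

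**Figure D5:**
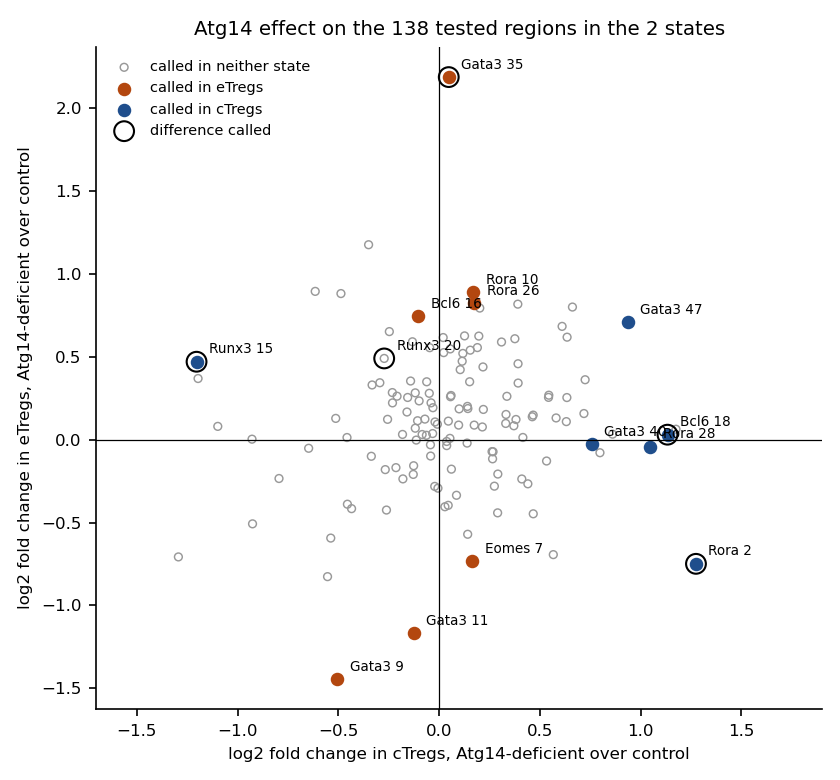
Log2 fold change of Atg14-deficient over control libraries in cTregs (horizontal axis) and in eTregs (vertical axis) for the 138 tested regions. Filled points passed the unadjusted rule in eTregs (orange, 7) or cTregs (blue, 6), rings mark the 5 regions whose effect differed between the states by that rule, and no region is filled in both colors.

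Gata3 region 9 (chr2:9155596-9156039, 722.5 kb downstream) had the smallest p of the eTreg comparison, with 23.4, 17.3 and 26.1 CPM in control eTregs and 2.40, 17.6, 9.53 and 4.62 CPM in Atg14-deficient eTregs. Atg14-deficient eTreg 2 lay within the control range and the other 3 below it, and the log2 fold change was -1.44 ± 0.38 (SE) (unadjusted p = 0.00081, adjusted p = 0.305, edgeR). In cTregs the log2 fold change was -0.51 ± 0.40 (SE). Region 11 (chr2:9200311-9200833, 677.7 kb downstream) was low, at 3.25, 2.10 and 4.69 CPM in control eTregs and 1.20, 1.67, 1.59 and 1.54 CPM in Atg14-deficient eTregs. The groups did not overlap, as in 3.51% of all regions in this direction, with a log2 fold change of -1.17 ± 0.49 (SE) (unadjusted p = 0.0247, edgeR). Region 35, the repeat-masked one, had 1.80, 2.09, 0.529 and 0.771 CPM in Atg14-deficient eTregs against the 3 reads in control eTregs, a ratio of pooled levels of 4.95 (exact 95% interval 1.42 to 26.5, counting error only, unadjusted p = 0.017, edgeR). This interval also treats reads as independent and may be too narrow.

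Rora had 2 regions that were higher in Atg14-deficient eTregs. Region 26 (chr9:69336146-69336463) had 5.86, 9.97 and 8.65 CPM in control eTregs and 11.4, 13.4, 15.9 and 17.5 CPM in Atg14-deficient eTregs. Every Atg14-deficient eTreg was above every control eTreg, as in 4.97% of all regions, and the log2 fold change was 0.82 ± 0.37 (SE) (unadjusted p = 0.0337, edgeR). The call was kept in 8 of 13 alternatives, and the value was 0.65 without control eTreg 1 (unadjusted p = 0.130, edgeR). At region 10 (chr9:69023350-69023800) the log2 fold change was 0.89 ± 0.41 (SE) (unadjusted p = 0.0367), with 7.16, 6.04 and 4.51 CPM in control eTregs and 10.2, 19.7, 6.35 and 7.96 CPM in Atg14-deficient eTregs, of which eTreg 2 was the highest and eTreg 3 lay within the control range.

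Bcl6 region 16 had 9.76, 3.94 and 6.67 CPM in control eTregs and 9.29, 9.20, 14.3 and 11.8 CPM in Atg14-deficient eTregs, with overlap, and a log2 fold change of 0.74 ± 0.33 (SE) (unadjusted p = 0.034, edgeR). It was 0.48 without control eTreg 2 (unadjusted p = 0.191, edgeR), and 9 of 14 alternatives kept the call. Eomes region 7, in the upstream cluster, had 7.81, 9.18 and 6.13 CPM against 5.99, 3.35, 4.24 and 4.62 CPM. It was lower in all Atg14-deficient eTregs, by a narrow margin and as in 3.51% of all regions, with a log2 fold change of -0.73 ± 0.35 (SE) (unadjusted p = 0.0436, edgeR), and 7 of 13 alternatives kept the call (-0.58 and unadjusted p = 0.151 without control eTreg 2). Leaving out 1 library moved these counts by over 1.5 times without Atg14-deficient eTreg 2 (8 higher and 3 lower), Atg14-deficient eTreg 4 (2 and 3) or control eTreg 2 (7 and 2). The summed signal at the starts of Il2ra, Ikzf2, Ctla4 and Cd3e was also higher in all Atg14-deficient than in all control eTregs, as given above. The part of this sum in these differences was not tested.

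In cTregs, Bcl6 region 18 (chr16:24160780-24161103, 172.1 kb upstream) had 4.89, 5.74 and 6.24 CPM in control and 17.6, 7.01, 12.4 and 12.2 CPM in Atg14-deficient cTregs. All Atg14-deficient cTregs were higher than all controls, as in 3.05% of all regions, and the log2 fold change was 1.13 ± 0.34 (SE) (unadjusted p = 0.0025, adjusted p = 1, edgeR). Runx3 region 15 (chr4:135158706-135159038), in an intron, was the one lower region, with 5.38, 7.18 and 8.03 CPM in control and 4.20, 3.11, 2.10 and 2.57 CPM in Atg14-deficient cTregs. No library overlapped, as in 2.45% of all regions, and the log2 fold change was -1.20 ± 0.40 (SE) (unadjusted p = 0.00539, edgeR).

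Gata3 region 47 (chr2:9801413-9801952, 76.6 kb downstream) had 8.31, 14.4 and 8.92 CPM in control and 27.7, 10.1, 21.8 and 21.8 CPM in Atg14-deficient cTregs, of which cTreg 2 lay within the control range (log2 fold change 0.94 ± 0.35 (SE), unadjusted p = 0.0128, edgeR). The other 3 higher regions, whose groups overlapped, were Gata3 region 40 (0.76 on the log2 scale), Rora region 28 (1.05) and Rora region 2 (1.27). Rora region 28 stood at 0.502 (unadjusted p = 0.276, edgeR) without Atg14-deficient cTreg 4, and Rora region 2 passed in 5 of the 12 alternatives that tested it. Leaving out Atg14-deficient cTreg 1 or cTreg 3 left 3 higher regions, and leaving out Atg14-deficient cTreg 4 or control cTreg 3 raised the lower regions to 3.

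The third comparison asked whether the effect of Atg14 loss differed between eTregs and cTregs, which is the same as asking whether the state difference depended on the genotype. By the unadjusted rule it was more positive in eTregs at 3 regions and more negative at 2, against 1.9% and 1.14% of all regions, and no region of the series passed the adjusted threshold. Runx3 region 15 had the smallest p, at 1.67 ± 0.55 (SE) on the log2 scale (unadjusted p = 0.00467, edgeR). It was lower in Atg14-deficient than control cTregs, as given above, while eTregs had 4.88, 4.20 and 6.49 CPM in controls and 5.09, 7.53, 8.21 and 8.22 CPM without Atg14, and these overlapped. Rora region 2 (chr9:68884446-68884710, 231.2 kb into the gene) was low throughout, with 1.96, 1.44 and 0.892 CPM in control cTregs and 4.20, 5.45, 3.16 and 1.93 CPM in Atg14-deficient cTregs, then 4.55, 2.36 and 3.79 CPM in control eTregs and 1.80, 2.51, 1.06 and 3.08 CPM in Atg14-deficient eTregs. The interaction there was -2.02 ± 0.83 (SE) (unadjusted p = 0.0206, edgeR), and it was -1.10 ± 0.47 (SE) at Bcl6 region 18 (unadjusted p = 0.0267). The counts moved by over 1.5 times without Atg14-deficient cTreg 1 (3 and 1), cTreg 2 (1 and 2), cTreg 4 (2 and 4) or eTreg 2 (2 and 4), and without control cTreg 1 (1 and 2) or cTreg 2 (4 and 5). With a replicate block, in which the control numbers are also taken as mice, they were 4 and 4, beside 2.69% and 1.82% of all regions. The block added among others Eomes region 7 (-1.01, unadjusted p = 0.0297, edgeR) and Gata3 region 9 (-1.03, unadjusted p = 0.0149). It lost Gata3 region 35 (unadjusted p = 0.0871).

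The sequence words were counted in all tested regions with a genome sequence. The AP-1 word was found in 4 of the 11 member regions that were higher in eTregs of either genotype and in 2 of the 16 that were lower, beside 17.5% of all regions tested, 32.8% of all regions higher in eTregs and 16.6% of all that were lower. The Klf word was in 8 of the 11 higher and 2 of the 16 lower member regions, against 35.1% of all regions, 40.2% of all higher and 34.0% of all lower regions. The Runx word was in 6 of the 11 and 6 of the 16, against 34.2% of all regions. The Gata3-family word was in 2 of 11 and 3 of 16, although it was in 27.3% of all regions that were lower in eTregs and 16.4% of all tested. For the Tcf/Lef word, 2 of 11 and 2 of 16 compare with 6.83% of all tested and 14.6% of all lower regions. The T-box word was in none of the 11 and 1 of the 16, against 6.98% of all regions, and the nuclear receptor word in 1 of 11 and 6 of 16, against 20.9%. The higher member regions had a median length of 402 bases and the lower ones 357.5, against 340 over all tested regions. Matches were counted separately for each word, so that matches to different words may overlap. A match says only that these letters occur in the region.

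The genes around these factors in the helper programs were described from lists of other genes, by the regions nearest to each. In control Tregs, 1 of 90 tested regions of the Th1 list was higher in eTregs and 3 lower, 2 and 1 of 99 in the Th2 list, 3 and 0 of 55 in the Th17 list, and 3 and 13 of 110 in the Tfh list (Cxcr5, Pdcd1, Il21, Il6ra, Ascl2, Tox and Tox2). Of the 13 lower Tfh regions, 12 belonged to Tox, which had 58 of the 110 regions and a median log2 fold change of -0.94, and the other was at Il21, while the 3 higher ones were at Pdcd1 and Tox2. Factors of the effector program (such as Prdm1, Irf4 and Batf) had 5 higher and 8 lower of 190, and those of the central program (such as Tcf7, Lef1 and Bach2) 2 higher and 39 lower of 204. Satb1 held 17 of these 39 lower regions, Bach2 10, Lef1 6, Klf2 4 and Tcf7 2, and Irf4 held 4 of the 8 lower effector regions. Over all regions 2.01% were higher and 3.29% lower, and the Th1 (1.11% and 3.33%) and Th2 (2.02% and 1.01%) lists were near or below these shares. In Atg14-deficient Tregs the same counts were 4 and 5 for Th1, 13 and 1 for Th2, 8 and 2 for Th17, 8 and 17 for Tfh, 13 and 12 for the effector and 5 and 39 for the central list, against 4.41% and 5.4% of all regions. The Th1 list, at 4.44% and 5.56%, was at these shares, and 15 of the 17 lower Tfh regions were again at Tox. Maf held 54 of the 99 Th2 regions and 6 of the 13 higher ones.

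For loss of Atg14 in eTregs, by the unadjusted rule, the counts were 7 higher and 1 lower (Th1), 5 and 0 (Th2), 3 and 0 (Th17), 12 and 0 (Tfh), 9 and 0 (effector) and 23 and 1 (central). In cTregs they were 4 and 0, 1 and 2, 1 and 0, 5 and 0, 5 and 1, and 6 and 3 in the same order. Of the 12 Tfh regions that were higher in eTregs, 10 were at Tox. Over all regions 4.59% were higher and 1.77% lower in eTregs, and 1.99% and 1.35% in cTregs. This comparison and the state difference in controls share the control eTreg libraries.

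The gene whose summed regions followed Tbx21 most closely over the 14 libraries, among 8726 other genes, was Itga1 (Pearson r = 0.98), which encodes an integrin chain. For Eomes it was Kcng3 (0.92), with Cd2 next (0.91), for Runx3 AI467606 (0.95), for Gata3 Dph5 (0.92), for Rora Aipl1 (0.96), for Pparg Dazap1 (0.93), with Irf8 next (0.93), and for Bcl6 Kmt2e (0.97), with Cd69, an early activation marker, next (0.97). These r values were taken on log2 CPM, the highest of many, over libraries that share depth and fall into 2 states, and are descriptions only.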

How the data were processed

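The 7 genes, the assignment rule and the gene and word lists were chosen with earlier results of these data known. Upstream, reads were trimmed, aligned, freed of duplicates and limited to nucleosome-free fragments, MACS2 called peaks in every library, and the authors merged those that 50% or more of a genotype's replicates shared. The deposited values are raw counts of reads in each merged region. The submitters' processing notes name cutadapt 1.9, Picard 1.65 and MACS2 2.1.0.20150603. The methods name mm9 and the notes GRCm38. All 67207 regions on chromosomes lie within the ends of GRCm38, and 7407 of 21774 genes have a region within 200 bp of a start, against 405 after a shift of 20000 bp, so GRCm38 and RefSeq genes were used. File starts count from 0, printed ones from 1.

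Counts were scaled by library totals, and edgeR 4.0.16 (R 4.3.3) fitted 1 robust quasi-likelihood model with a coefficient per group to 61366 regions and 14 libraries, after its filter on low counts, with two-sided tests and Benjamini-Hochberg adjustment over all regions. State differences were called at an adjusted p below 0.05, Atg14 effects at an unadjusted p below 0.05, each with a log2 fold change beyond 0.5. DESeq2 1.42.0 and limma 3.58.1 served alternatives, Python 3.11.15 the tables. The fit was tested on simulated data. With a median mean count of 23 per region and a biological coefficient of variation of 25.6%, small changes at low regions cannot be seen. Per the study, 3 control and 4 Atg14-deficient chimeras were used, as many as the libraries of each state.

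The regions described were, per gene, the promoter region nearest a start, the region of highest mean CPM, up to 3 regions per direction called in controls, the called region of smallest p per Atg14 comparison and direction, and the 3 smallest interaction p. Others were chosen after their values were seen: Runx3 region 20, Gata3 regions 11, 36, 40 and 53 and Rora regions 1, 10, 20 and 22. Deviations from the group means of same-numbered Atg14-deficient eTreg and cTreg libraries correlated over regions (r = 0.12, 0.24, 0.14 and 0.23), and these numbers were taken to mark a mouse in the replicate block, although no label says so. Of the marker genes, 1 each of the B cell and cTreg lists is not reported here.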

Additional observations from a re-analysis of the deposited data

Results flagged for a closer look

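Of 68 groups of 4 libraries examined for a single library that stood apart, 2 were flagged, and chance flags about 1 group in 20. At the inner Rora promoter (region 19), Atg14-deficient cTreg 3 had 22.1 CPM and the other 3 libraries had 26.1 to 26.5 CPM, and without it the state call at this promoter was lost (0.486 on the log2 scale, adjusted p = 0.0992, edgeR). At Rora region 12, the most open region of the gene, Atg14-deficient eTreg 2 had 33.1 CPM and the other 3 had 60.5 to 65.8 CPM.

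At 5 regions the effect of Atg14 loss differed between eTregs and cTregs by the interaction test of edgeR at an unadjusted p below 0.05, and none passed the adjusted threshold. The effect in eTregs minus that in cTregs, on the log2 scale, was 1.67 at Runx3 region 15, 0.76 at Runx3 region 20, 2.14 at the repeat-masked Gata3 region 35, -2.02 at Rora region 2 and -1.10 at Bcl6 region 18. With a replicate block, Gata3 region 35 did not pass (2.05, unadjusted p = 0.0871, edgeR), and DESeq2 called 0 Gata3 regions in the interaction.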

How the results depend on the processing

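No named difference reversed under any alternative run, and the scalings moved the median log2 fold change of all regions by less than 0.1. With at least 10 counts in every library, 0 higher and 5 lower member regions were called between states in controls, 5 and 7 in Atg14-deficient Tregs, 0 were lower without Atg14 in eTregs, 3 and 0 changed in cTregs, and 1 and 1 in the interaction. With a replicate block, 8 were higher in control eTregs, 16 in Atg14-deficient eTregs, 3 in Atg14-deficient against control cTregs, and 4 were lower in the interaction, while the shares over all regions became 4.67%, 7.63%, 1.79% and 1.82%. The control state libraries share a number with r = 0.05, 0.21 and 0.19, which does not show pairing, although every library correlated best with its own number. Beyond a log2 fold change of 1, 5 were higher in Atg14-deficient eTregs over cTregs, and 1 (eTregs) and 3 (cTregs) higher without Atg14. Within gene bodies, 1 was lower in control and 2 in Atg14-deficient eTregs, 2 and 0 changed without Atg14 in eTregs, 2 were higher in cTregs, and the interaction had 1 and 1. Loess offsets left 2 higher without Atg14 in eTregs, and DESeq2 1 in the interaction. Leaving out 1 library gave 0 to 4 higher and 2 to 7 lower (controls, state), 2 to 13 and 5 to 11 (Atg14-deficient, state), 2 to 8 and 2 to 3 (Atg14 loss, eTregs), 3 to 7 and 1 to 3 (cTregs), and 1 to 4 and 1 to 5 (interaction). Of the state calls, Gata3 region 35 in controls and Eomes regions 6 and 7, Gata3 region 37 and Rora region 13 in Atg14-deficient Tregs held under every alternative that tested them. Regions of a few CPM rest on few reads per library, which limits their precision.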
